A study of Homo sapiens with 4 samples.

Results

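The genes described here encode 10 structural proteins of the basement membrane: the collagen IV chains COL4A1, COL4A2, COL4A5 and COL4A6, the laminin chains LAMA1, LAMA5, LAMB1, LAMB2 and LAMC1, and nidogen NID1. They were taken by symbol from the count tables and make up 10 of the 25559 gene symbols listed there. Messenger RNA was sequenced from HGC27 (HGC-27), a human gastric cancer cell line, in 2 libraries of wildtype (wt) cells and 2 libraries of cells with the genotype RUNX3 knock-out (RUNX3 KO). RUNX3 is a DNA-binding transcription factor of the RUNX family. According to the study's methods, RUNX3 KO cells received a lentivirus carrying Cas9 and a guide to RUNX3, were selected with puromycin and went through single-cell cloning. How many clones lie behind the 2 RUNX3 KO libraries, and whether the wildtype cells carried a vector, is not given, so effects of the knockout, the vector and the choice of clone cannot be told apart. Nothing says that libraries of a group came from separate cultures, so the p-values measure the spread between these libraries, which may be technical.

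The basement membrane is a thin sheet of matrix under epithelia and around vessels, muscle and nerve. Laminins are trimers of an alpha, a beta and a gamma chain that polymerize into a first network bound to cells through integrins and dystroglycan. Collagen IV, a trimer as well, forms a second network crosslinked by covalent bonds, and nidogen bridges the networks by binding the laminin gamma chain and collagen IV. In the stomach this sheet lies beneath the glands, and carcinoma cells cross it when they invade.

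The collagen IV genes lie in head-to-head pairs, so that neighbouring genes are read in opposite directions from a short shared stretch. That stretch is shown for COL4A1 and COL4A2 because transcripts of the pair had different levels in these cells, and the stretch before COL4A5 is shown beside it. The promoter of NID1 is shown because NID1 had the largest fall of the 10 genes. The sequences are from RefSeq on GRCh38.p14. RUNX proteins bind the letters TGTGGT or TGCGGT, which were searched on both strands in windows of 300 bases, from 250 before to 50 after each start. Of the 10 genes, 9 had a window and LAMA1 had none, and 1 window, that of NID1, held a match, in capitals below, which reads ACCGCA as the reverse complement of TGCGGT and begins 5 bases before the start. Over all 35116 windows of this length, 19.6% held at least 1 of the 2 motifs, 13.1% TGTGGT and 7.29% TGCGGT. A match is a run of letters and was not shown here to be bound. The other sequences hold neither motif and so have no capitals.
COL4A1 to COL4A2, the 126 bases between the starts, plus strand, chr13:110307158-110307283: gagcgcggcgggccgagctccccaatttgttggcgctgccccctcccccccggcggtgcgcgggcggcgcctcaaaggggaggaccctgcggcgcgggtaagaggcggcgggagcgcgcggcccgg
COL4A5, the 250 bases before the start, plus strand, chrX:108439588-108439837: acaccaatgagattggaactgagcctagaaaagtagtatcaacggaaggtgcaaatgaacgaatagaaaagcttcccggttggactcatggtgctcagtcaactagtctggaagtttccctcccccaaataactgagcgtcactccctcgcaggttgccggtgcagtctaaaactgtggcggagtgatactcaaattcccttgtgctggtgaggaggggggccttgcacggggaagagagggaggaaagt
NID1, the 250 bases before the start and the start base, minus strand, chr1:236065090-236065340: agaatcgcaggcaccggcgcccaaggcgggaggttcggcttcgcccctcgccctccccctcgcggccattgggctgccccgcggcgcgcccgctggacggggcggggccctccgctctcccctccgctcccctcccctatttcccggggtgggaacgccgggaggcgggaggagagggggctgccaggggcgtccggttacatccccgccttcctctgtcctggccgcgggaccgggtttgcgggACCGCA
The stretch between COL4A1 and COL4A2 was 80.2% G and C and the NID1 stretch 76.1%, whereas that before COL4A5 was 51.2%. The starts of COL4A6 and COL4A5 are separated by 379 bases.

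Each library held between 11731401 and 12110876 reads on genes. Levels are given as CPM, the counts of a gene relative to a library size scaled by the trimmed mean of M values (TMM). Fold changes are RUNX3 KO over wildtype on the log2 scale, and a gene was called when its edgeR adjusted p was under 0.05. RUNX3 itself had 351 and 308 counts in wildtype cells against 225 and 185 in RUNX3 KO cells. This was a fall of 0.70 on the log2 scale (SE 0.0961), so its transcript was still counted. The study reports that loss of RUNX3 was checked at the mRNA and protein level, with no protein on an immunoblot. Protein was not measured here. Among the 12967 genes that passed the filter on low counts, 48.9% were called, 24.5% higher and 24.4% lower in RUNX3 KO cells. In 72.7% of them the CPM of the groups did not overlap.

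Of the 10 genes, 8 passed the filter. In RUNX3 KO cells COL4A2, COL4A5, LAMA1, LAMA5 and LAMB1 were higher, which is 5 of 8 beside 24.5% of all tested genes, and NID1 was lower, which is 1 of 8 beside 24.4%. LAMB2 and LAMC1 were not called, and COL4A1 and COL4A6 had too few counts to be tested. A change of at least 2-fold was called for LAMA1, COL4A2 and NID1, that is 2 of 8 higher and 1 of 8 lower. Over all tested genes 2.11% were higher and 3.95% lower by that much, 6.06% together. COL4A2 passed the filter only through its RUNX3 KO counts and NID1 only through its wildtype counts, so both had to differ to be tested, and the counts over the 8 genes are a description. The median log2 fold change of the 8 genes was 0.36, beside -0.0021 for all tested genes. The middle 50% of all tested genes lay between -0.23 and 0.17, a range that holds LAMB2 and LAMC1 but none of the 6 called genes. As the libraries are of bulk RNA, fewer cells with a transcript and less of it in each cell cannot be told apart for any of the genes.

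**Figure D1:**
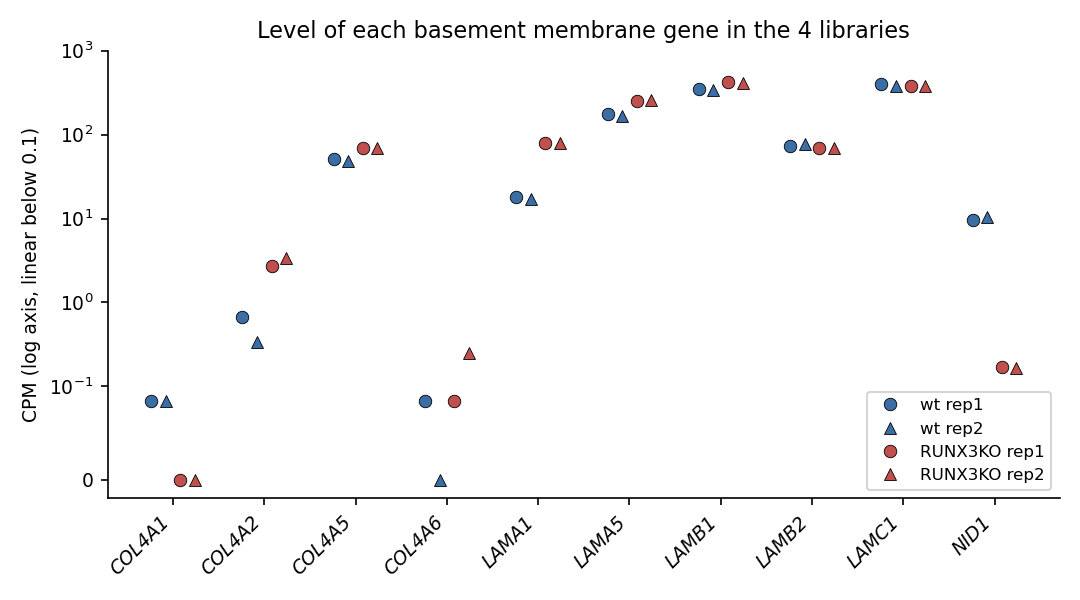
CPM of the 10 basement membrane genes in each of the 4 libraries, on an axis that is logarithmic above 0.1 and linear below it; points are libraries. LAMA1 sits near 80 CPM in the RUNX3 KO libraries and below 20 in the wildtype libraries, NID1 falls from about 10 CPM to below 0.2, and COL4A1 and COL4A6 lie near 0 in every library.

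The chains COL4A1 and COL4A2 join in the collagen IV trimer found in nearly all basement membranes. COL4A1 (chromosome 13, 110801310 to 110959504, GRCh37) had 1 and 1 counts in wildtype cells and 0 and 0 in RUNX3 KO cells. These are at or under the floor of 3 counts per library, so no fold change is given, and COL4A1 was near absent from the counts of both groups. COL4A2 (chromosome 13, 110958159 to 111165556) had 0.678 and 0.339 CPM in the wildtype and 2.71 and 3.41 CPM in the RUNX3 KO libraries, from 8 and 4 against 32 and 41 counts. Both RUNX3 KO libraries lay above both wildtype libraries, and the groups did not overlap. The mean went from 0.508 ± 0.239 to 3.06 ± 0.494 CPM (SD, n = 2), a rise of 2.57 on the log2 scale (SE 0.369), or 5.93-fold, with an edgeR adjusted p of 5.04e-09. Among all tested genes, COL4A2 ranked 46 by size of rise. With so few wildtype counts its fold change was the least precise among the genes that rose, from 2.16 without the second wildtype library to 3.14 without the first. The annotated spans of COL4A1 and COL4A2 overlap but their exons do not, so reads on exons of COL4A2 were not shared with COL4A1.

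COL4A5 and COL4A6 encode chains of a more restricted network, and COL4A5 also joins COL4A3 and COL4A4 in the kidney glomerulus, where loss of these chains causes Alport syndrome. COL4A5 (chromosome X, 107683068 to 107940775) had 51.6 and 49.1 CPM in the wildtype and 68.5 and 70.2 CPM in the RUNX3 KO libraries. The RUNX3 KO libraries were both higher, by more than the spread within either group. Mean levels were 50.4 ± 1.72 and 69.3 ± 1.23 CPM (SD, n = 2), a rise of 0.46 (SE 0.0578), or 1.38-fold, with an edgeR adjusted p of 6.24e-11. COL4A6 (chromosome X, 107398837 to 107682727), read in the opposite direction from the neighbouring start, had 1 and 0 counts against 1 and 3. It was at the floor of 3 counts in every library, so in both head-to-head pairs 1 gene was counted at a measurable level and its partner was not.

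Per kilobase of exon, COL4A5 made up nearly all collagen IV transcripts. Its share of the 6 chains was 98.9% and 99.4% in the wildtype and 97.5% and 96.7% in the RUNX3 KO libraries. COL4A2 took 0.80% and 0.422% in the wildtype and 2.38% and 2.89% in the RUNX3 KO libraries, so it was a minor chain in both groups. With the longest transcript as the length its share was 1.31% and 0.693% against 3.85% and 4.68%, and the difference for COL4A5 was -3.24 percentage points. The share of COL4A5 was lower by 2.08 percentage points in RUNX3 KO cells by the length of all exons (99.1 ± 0.409% against 97.1 ± 0.566%), with groups that did not overlap and a two-sided exact permutation p of 0.33, the smallest that 2 against 2 libraries can give. The summed collagen IV level went from 4.28 ± 0.164 to 6.02 ± 0.142 CPM per kilobase (SD, n = 2), a ratio of 1.41. Most of that sum was COL4A5 in each library.

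The laminin alpha chain carries sites that receptors bind, and the name of a trimer gives its alpha, beta and gamma chains. LAMA1 encodes the chain of laminin-111, which is made mostly in the early embryo, and LAMA5 that of laminin-511 and laminin-521, common in adult epithelium. LAMA1 (chromosome 18, 6941741 to 7117796) had 18 and 16.9 CPM in the wildtype and 79.6 and 79.9 CPM in the RUNX3 KO libraries. The groups were far apart, with both RUNX3 KO libraries more than 4 times the higher wildtype library. Its mean rose from 17.5 ± 0.714 to 79.8 ± 0.208 CPM (SD, n = 2), by 2.19 on the log2 scale (SE 0.0720), or 4.57-fold, with an edgeR adjusted p of 2.35e-45. It ranked 71 by size of rise among all tested genes. In the annotation, 11.1% of the exon bases of LAMA1 overlap exons of genes on the opposite strand, and without a stated strand setting reads from those bases cannot be told apart.

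LAMA5 (chromosome 20, 60883011 to 60942368) was already well expressed and rose less, from 176 and 168 CPM in the wildtype to 253 and 258 CPM in the RUNX3 KO libraries. Both RUNX3 KO values exceeded both wildtype values. The means were 172 ± 5.16 and 255 ± 4.03 CPM (SD, n = 2), a rise of 0.57 (SE 0.0342), or 1.49-fold (edgeR adjusted p = 5.53e-27). The rise of LAMA1 exceeded that of LAMA5 by 1.62 on the log2 scale (SE 0.0797), with a 95% interval from 1.46 to 1.78 based on the standard errors of the fit. Exons of LAMA5 share 2.53% of their bases with ADRM1 and LAMA5-AS1 on the opposite strand, and ADRM1 rose by 0.14.

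Among the alpha chains the makeup shifted toward LAMA1. Per kilobase of exon, LAMA1 took 5.44% and 5.31% of the 5 alpha chains in the wildtype and 16.3% and 16.4% in the RUNX3 KO libraries. That is a difference of 11.0 percentage points, and the 2 groups did not overlap (exact permutation p = 0.33, the smallest possible). LAMA5 was the main chain in both groups, with 58.8 ± 0.361% and 58.1 ± 0.847% (SD, n = 2). Its share did not separate the groups (exact permutation p = 0.667). With the longest transcript as the length, the share of LAMA5 was 44.9% and 46.8%, and with the longest coding sequence 44.5% and 46.0%, so the direction turned and the groups then did not overlap. LAMA2, the alpha chain of muscle and nerve, is named after its values were seen. It took 25.7 ± 0.20% in the wildtype and 17.6 ± 0.192% in the RUNX3 KO libraries, or 41.6% and 30.1% with the longest transcript, while its own CPM was not called as changed (0.04 on the log2 scale, edgeR adjusted p = 0.404). The summed alpha level went from 20.5 ± 0.488 to 30.8 ± 0.0374 CPM per kilobase (SD, n = 2), a ratio of 1.5.

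**Figure D2:**
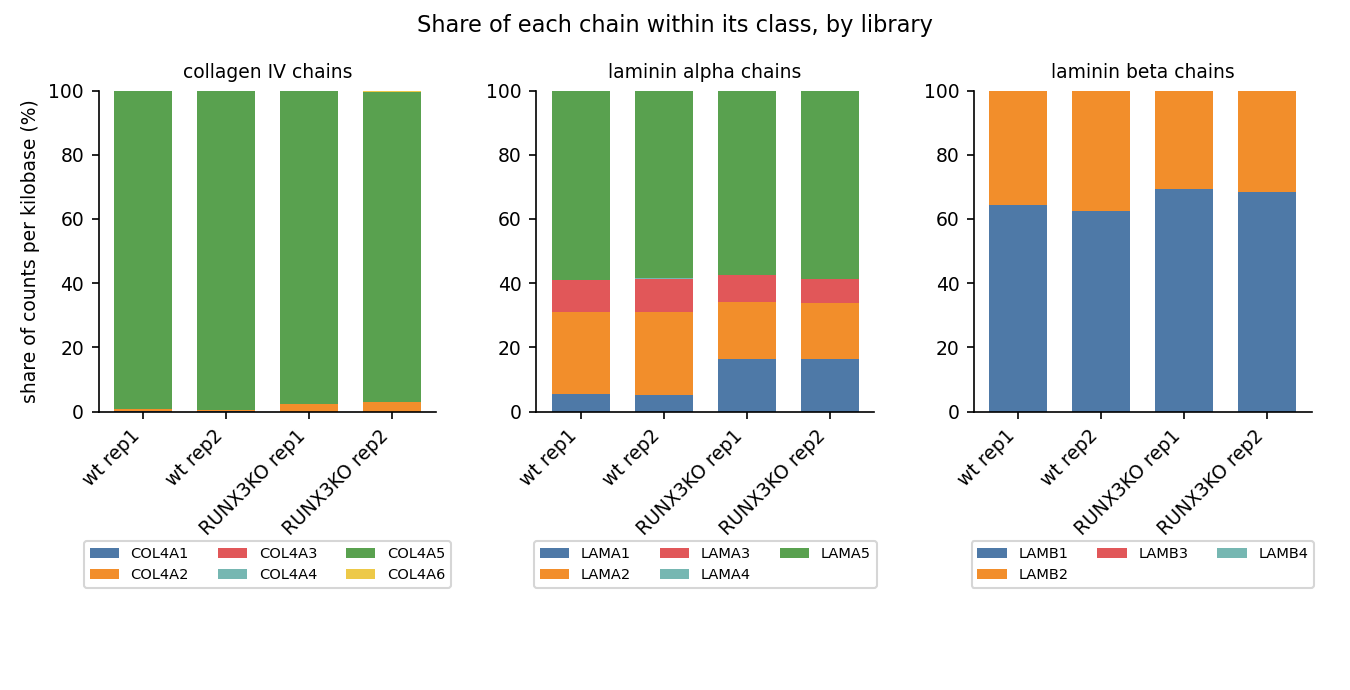
Share of each chain in the counts per kilobase of exon of its class (%, stacked bars from 0 to 100), for each of the 4 libraries. LAMA1 goes from 5.38% to 16.4% of the alpha chains on average, LAMB1 from 63.3% to 68.9% of the beta chains, and COL4A5 fills nearly the whole bar of collagen IV in every library.

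Laminin beta chains pair with LAMC1 before an alpha chain joins. LAMB1, the beta chain of laminin-111 and laminin-511, lies on chromosome 7 from 107564244 to 107643658. It had 352 and 343 CPM in the wildtype and 419 and 411 CPM in the RUNX3 KO libraries. The rise was small beside that of LAMA1, but the groups did not overlap. Means were 348 ± 6.37 and 415 ± 5.93 CPM (SD, n = 2), a rise of 0.25 (SE 0.0280), or 1.19-fold, with an edgeR adjusted p of 4.81e-13. Its exons share 2.60% of their bases with genes on the opposite strand, among them DLD, which rose by 0.27.

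LAMB2, the beta chain of laminin-521 and of the glomerulus and the neuromuscular junction, lies on chromosome 3 from 49158547 to 49170551. It had 72.3 and 76.4 CPM in the wildtype and 68.7 and 69.7 CPM in the RUNX3 KO libraries. Both RUNX3 KO libraries were slightly lower, yet the gene was not called, at -0.10 on the log2 scale (SE 0.0528, edgeR adjusted p = 0.0959). With scaling by library size alone it was called lower (-0.12, edgeR adjusted p = 0.0448). LAMB1 and LAMB2 differed in their response by 0.36 on the log2 scale (SE 0.0598), with a 95% interval from 0.24 to 0.48. In the makeup of the beta chains per kilobase, LAMB1 held 64.3% and 62.4% in the wildtype and 69.2% and 68.5% in the RUNX3 KO libraries, a difference of 5.54 percentage points (exact permutation p = 0.33, the smallest possible). With the longest transcript as the length these means were 79.8% and 83.5%, a difference of 3.71 points, and with the longest coding sequence 82.5% and 85.8%, a difference of 3.30. The summed beta level was 29.5 ± 0.0796 and 32.4 ± 0.226 CPM per kilobase, a ratio of 1.10.

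LAMC1 (chromosome 1, 182992555 to 183114727) encodes the gamma chain of most laminins and carries the site that nidogen binds. It had 401 and 380 CPM in the wildtype and 378 and 379 CPM in the RUNX3 KO libraries. The second wildtype library lay next to the RUNX3 KO libraries and the first lay above them, with no overlap between the groups. The gene was not called, at -0.05 on the log2 scale (SE 0.0284, edgeR adjusted p = 0.181). Without the second wildtype library its value was -0.09, and without the first it was -0.0042. With library size alone LAMC1 was called lower (-0.07, edgeR adjusted p = 0.0488). LAMC1 took over 99.9% of the gamma chains in all 4 libraries, and the summed gamma level had a ratio of 0.969. The alpha and beta chains that rose were therefore measured beside a gamma chain without a called change.

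NID1 encodes nidogen-1, the bridge between the laminin and collagen IV networks. NID1 (chromosome 1, 236139130 to 236228409) had 9.57 and 10.3 CPM in the wildtype and 0.169 and 0.166 CPM in the RUNX3 KO libraries, from 113 and 122 against 2 and 2 counts. It was present in both wildtype libraries and at the floor in both RUNX3 KO libraries. Against a floor of 3 counts per library the wildtype mean of 9.95 ± 0.542 CPM (SD, n = 2) makes it at least 39.5-fold lower in RUNX3 KO cells. The edgeR adjusted p was 1.89e-27. NID2, the other nidogen, is named after its values were seen. It had 3 and 1 counts against 0 and 1 and was not tested, so neither nidogen gene was above the floor in RUNX3 KO cells.

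**Figure D3:**
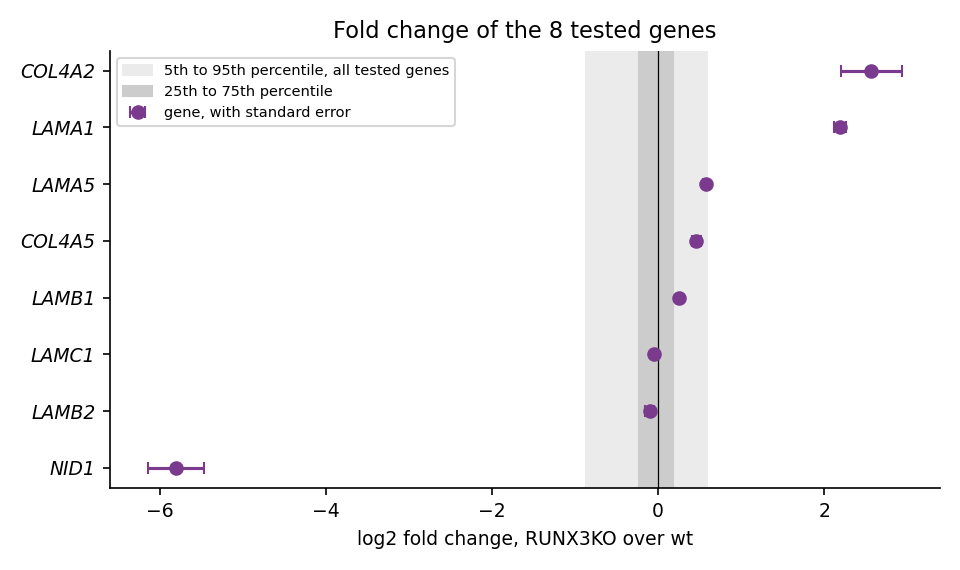
Log2 fold change of the 8 tested genes, RUNX3 KO over wildtype, with bars for the standard error and grey bands for the 25th to 75th and the 5th to 95th percentile of all tested genes. COL4A2 and LAMA1 lie above 2, COL4A5, LAMA5 and LAMB1 between 0.25 and 0.57, LAMB2 and LAMC1 just below 0, and NID1 far to the left at a fitted value that depends on the 2 counts left in each RUNX3 KO library.

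Per kilobase of exon, the order of the levels in wildtype cells was LAMC1 (46.2 ± 1.84 CPM per kilobase), LAMB1 (18.7 ± 0.342), LAMA5 (12.0 ± 0.361), LAMB2 (10.8 ± 0.422), COL4A5 (4.24 ± 0.145), NID1 (1.71 ± 0.0933) and LAMA1 (1.10 ± 0.0450), all SD with n = 2, followed by COL4A2, COL4A1 and COL4A6. In RUNX3 KO cells LAMA1 stood at 5.03 CPM per kilobase, next to COL4A5 at 5.84, and NID1 at 0.0289 was below COL4A2 at 0.159. LAMA1 thus stood above NID1 in RUNX3 KO cells and below it in wildtype cells, while the 5 most abundant genes had the same order in both groups by this length. With the longest coding sequence, COL4A5 at 13.7 stood above LAMB2 at 12.8 CPM per kilobase in RUNX3 KO cells, and below it in wildtype cells (9.93 against 13.8). Neighbours in the wildtype order differed by more than their SDs down to LAMA1, whereas COL4A1 and COL4A6 were at the floor. The order of LAMC1 and LAMB1 also depends on the length used: with the longest transcript in place of all exons, LAMB1 was the highest, at 51.6 against 49.3 CPM per kilobase in wildtype cells.

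The nearest 20 tested genes on each side of each gene were compared as a check on the region. The medians of these 40 neighbours lay between -0.12 and 0.07 on the log2 scale for all 10 genes. Among the neighbours of COL4A2, LAMA1 and NID1, 0 of 40 moved as far as the gene itself in the same direction. Counted in either direction, 1 of 40 moved as far as COL4A2 (ITGBL1, at -3.98), 1 as far as LAMA1 (EMILIN2, at -2.44) and 0 as far as NID1, these neighbours being named after their values were seen. The genes on either side of LAMA1 were ARHGAP28, at -0.69, and RAB12, at 0.04. Beside NID1, both next genes fell, LYST by 0.55 and GPR137B by 0.56 on the log2 scale, while the 40 neighbours were split into 20 above and 20 below 0. For the smaller changes, 3 of 40 neighbours of COL4A5, 1 of LAMA5 and 8 of LAMB1 rose as far as the gene, and 9, 3 and 18 moved as far in either direction.

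The other genes of the basement membrane were listed by role, 77 symbols in all, of which 73 were in the tables and 53 were tested. The symbols not in the tables are newer names of listed genes that were counted under an older name. In RUNX3 KO cells 16 of the 53 were higher and 22 lower, beside 24.5% and 24.4% of all tested genes, with a median of -0.03. By at least 2-fold 5 were higher and 7 lower, beside 2.11% and 3.95%. Some of these genes passed the filter only through the group where they were higher, so these counts are a description. Of the 9 remaining collagen IV and laminin chains, 6 were at the floor of 3 counts in every library, among them COL4A3 and COL4A4, the partners of COL4A5. LAMA3, the alpha chain of laminin-332, rose by 0.25 (SE 0.0782), from 350 and 348 counts to 439 and 399 (edgeR adjusted p = 0.00522). It was not called with no filter on low counts, with the DESeq2 Wald test or without RUNX3 KO replicate 1.

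Of 16 tested other components, 5 were higher and 6 lower, beside 24.5% and 24.4% of all tested genes. By at least 2-fold 2 were higher and 2 lower, beside 2.11% and 3.95% of all tested genes. When 10 counts were required in every library, these were 1 and 0. MATN2, a matrix adaptor protein, had 218 and 213 counts against 539 and 510 and rose by 1.27. FBLN1, a fibulin that binds laminin and nidogen, had 2154 and 2131 counts against 1319 and 1458 and fell by 0.64. The heparan sulfate proteoglycans of the list are named here after their values were seen. AGRN, which binds laminin, rose by 0.46, while HSPG2 was at 0.0059 (edgeR adjusted p = 0.923) and COL18A1 at 0.18 (adjusted p = 0.261), neither of them called. Without RUNX3 KO replicate 1, RUNX3 KO replicate 2 or wildtype replicate 2, 3 of these components were higher, in fits that called 11.2%, 9.70% and 20.5% of all tested genes higher.

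Among 12 tested receptors, 5 were higher and 4 lower, beside 24.5% and 24.4% of all tested genes. ITGA6, an alpha subunit of laminin-binding integrins, had 144 and 174 counts against 394 and 410 and rose by 1.32. GPR126, an adhesion receptor that binds collagen IV, had 88 and 103 counts against 16 and 16 and fell by 2.58. The other laminin receptors of the list did not move one way, and are named after their values were seen. DAG1, BCAM and ITGA3 rose by 0.56, 0.91 and 0.79, ITGA7 and MCAM fell by 0.59 and 0.29, and ITGB4 was at 0.59 without a call (edgeR adjusted p = 0.216), beside -0.03 for ITGB1, the beta subunit that ITGA3 and ITGA6 share (edgeR adjusted p = 0.365).

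Enzymes and chaperones that fold, modify and crosslink collagen were higher in 2 and lower in 8 of 15 tested genes, beside 24.5% and 24.4% of all tested genes, with a median of -0.09. Without RUNX3 KO replicate 1, and likewise without replicate 2, 5 were lower and 1 higher, in fits that called 11.6% and 10.4% of all tested genes lower and 11.2% and 9.70% higher. PLOD1, a lysyl hydroxylase, rose by 0.27, and LOXL1, which crosslinks collagen and elastin, had 703 and 636 counts against 242 and 302 and fell by 1.31. Of 8 tested proteases, 3 were higher and 4 lower, beside 24.5% and 24.4% of all tested genes, and 2 were lower in each of the same fits. TLL1, which cleaves matrix precursors, had 126 and 131 counts against 270 and 303 and rose by 1.14, and MMP2, the gelatinase that degrades collagen IV, had 309 and 311 counts against 36 and 36 and fell by 3.12.

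Markers of other cells that make basement membrane were read beside these results, and the markers named were chosen after their values were seen. The 6 genes of the fibroblast and pericyte list were all tested, and their summed level was 449 and 447 CPM in the wildtype and 331 and 328 CPM in the RUNX3 KO libraries, most of it from DCN, LUM and THY1. Of the 6 genes 5 were lower, from -2.33 for PDGFRA to -0.28 for THY1, and RGS5, a pericyte gene, was higher, at 1.41 (6 and 11 against 18 and 28 counts). Of genes of endoderm that makes basement membrane, SOX17 and AFP were at 0 in every library, and the transcription factors GATA4 and GATA6 had 213 and 257 against 249 and 252 counts and 97 and 91 against 159 and 198 counts. GATA6 rose by 0.91, whereas GATA4 was not called, at 0.08 (edgeR adjusted p = 0.533). Endothelial markers summed to 7.54 and 8.13 CPM against 4.24 and 3.49 CPM, nearly all of it from ESAM (85 and 92 against 44 and 37 counts), while VWF had 1 and 2 against 4 and 4 counts, with PECAM1, CDH5, KDR and CLDN5 at 0 in every library. Leukocyte markers summed to between 1.41 and 2.63 CPM. Of the 10 gastric epithelial markers, 7 were at the floor in every library, 5 of these at 0 throughout (KRT19, TFF1, TFF2, MUC5AC and GKN1). EPCAM had at most 1 count, and KRT18 had 0 and 0 against 2 and 14 counts. Few transcripts of these markers were thus counted in this line. The sum of this list was 3.22 and 2.97 CPM in the wildtype and 8.90 and 10.6 CPM in the RUNX3 KO libraries, and came mostly from CDH1 (15 and 21 against 30 and 32 counts) and KRT8 (19 and 11 against 72 and 81 counts). The part of these lists in the changes of the basement membrane genes was not tested.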

How the data were processed

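RNA-seq counts of 2 wildtype and 2 RUNX3 KO libraries were analysed. The authors deposited raw counts of reads per gene symbol for each library, without normalization. The labels name bcl2fastq, HISAT2 2.1.0 and HTSeq with hg19, a polyA RNA source and a stranded mRNA kit, whereas the study's methods name STAR and featureCounts with GENCODE and another extraction kit and medium, and which were used for these files is not settled here. Whether counting used strand is not given in the sources used here. Each table held 25564 rows, of which 5 named no gene, took 25.9% to 28.1% of all counts and were left out.

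Genes were filtered with filterByExpr (minimum count 10, minimum total 15), which left 12967, and compared in R 4.3.3 with edgeR 4.0.16: TMM scaling, quasi-likelihood test (glmQLFit, glmQLFTest) and p-values adjusted by Benjamini-Hochberg over the 12967 genes, with a common dispersion of 0.000211. Standard errors were taken as the absolute log2 fold change over the root of F. A library's floor was 3 counts, and floors cover counting error only. Replicates were checked for repeated deposits: the chi-square per degree of freedom was 1.22 in the wildtype pair and 1.18 in the RUNX3 KO pair, and both libraries of each pair were kept. Shares were compared over libraries with a two-sided exact permutation test (scipy 1.17.1). The 95% interval of a difference between fold changes is normal and treats the 2 genes as independent.

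Positions came from GENCODE on GRCh37, for 21717 symbols, 19607 by the same symbol and 2110 by an older one. Lengths are the union of annotated exons. Promoter sequences came from RefSeq on GRCh38.p14, and no position was converted between builds.

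The 10 genes and all lists were chosen with earlier results of these data known. All 10 genes are named, and from each list the called gene with the largest rise and the called gene with the largest fall at a mean of at least 50 counts, other names being marked in the text, apart from genes next to the 10 on a chromosome or overlapping them. A further list of cell type markers is not reported here as a whole. The steps were tested on simulated data. Alternatives were DESeq2 1.42.0 (its size factors and its Wald test), limma-voom (limma 3.58.1), library size alone, upper-quartile scaling, 2 other filters, a replicate block, other gene lengths, and each library left out.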

Additional observations from a re-analysis of the deposited data

How the results depend on the processing

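The 5 genes called higher, COL4A2, COL4A5, LAMA1, LAMA5 and LAMB1, and NID1, called lower, kept their direction and their call under every alternative in which they were tested. Adjusted p-values here are edgeR's, unless another tool is named. When 10 counts were required in every library, COL4A2 and NID1 were not tested, which left 4 genes higher, 0 lower and 1 changed at least 2-fold. LAMB2 and LAMC1 were near the threshold: with library size alone (-0.12, adjusted p = 0.0448, and -0.07, adjusted p = 0.0488) and with upper-quartile scaling (-0.12, adjusted p = 0.0439, and -0.07, adjusted p = 0.0485) both were called lower, so that 3 genes were lower. These scalings put the median of all tested genes at -0.0221 and -0.0228, beside -0.0021 with TMM, and the cause of the calls was not tested. Over the alternatives, DESeq2 and limma-voom included, the adjusted p ranged from 0.0439 to 0.448 for LAMB2 and from 0.0159 to 0.932 for LAMC1.

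Leaving out each library in turn gave 5 of the 10 genes higher, 1 to 2 lower and 3 changed at least 2-fold. Over all tested genes these fits called 9.70% to 20.8% higher and 10.4% to 21.3% lower, beside 24.5% and 24.4% with all 4 libraries. The second gene lower was LAMC1, without wildtype replicate 2 (-0.09, adjusted p = 0.0159). A group of 1 library was assumed to vary like the other group. The largest adjusted p of these fits for the 6 called genes was 0.0414, for COL4A2 without RUNX3 KO replicate 2.

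Lengths other than the union of exons were tried after seeing the data for the levels. The difference in the share of COL4A5 went from -2.08 to -3.24 percentage points with the longest transcript and -3.16 with the longest coding sequence, that of LAMA1 from 11.0 to 11.1 and 11.8, and that of LAMB1 from 5.54 to 3.71 and 3.30. Without each library these differences ranged from -2.48 to -1.68, from 10.9 to 11.0 and from 4.6 to 6.48. The ratio of the summed alpha level was 1.42 and 1.44 instead of 1.5, and that of the beta level 1.14 and 1.15 instead of 1.10.

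The libraries share replicate numbers, but nothing ties a number to a shared culture. With a replicate block the calls were 5 higher, 1 lower and 3 changed at least 2-fold, and 16 and 22 of the other basement membrane genes were higher and lower. These last counts were 13 and 19 without a filter, 14 and 20 with 10 counts in every library, and 11 and 16 with the DESeq2 Wald test. They also moved when single libraries were left out. Over all tested genes the share called also fell without a filter (13.9% higher and 14% lower) and with the DESeq2 Wald test (14.1% and 14.4%). It fell without each library too, most without a RUNX3 KO library. With 10 counts in every library it did not fall, at 24.3% and 24.7% beside 24.5% and 24.4% in the main fit. The median of the receptors changed sign, from 0.07 to -0.03 without a filter and -0.04 with 10 counts in every library, as did that of the other components, from -0.0036 to 0.05 without wildtype replicate 1. With 2 libraries per group no permutation p can go below 0.33, and changes in genes at the floor, such as COL4A1 and COL4A6, were not detectable at this depth.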
